A study of Homo sapiens with 9 samples.

Results

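COR-L279 cells treated for 24 h with 1.5 µM JQ1 were compared with the same cells treated with 0.5 µM JQ1, to tell genes that responded further at the 3-fold higher dose from genes whose response had levelled off. The comparison used 6 of the 9 libraries of the series, 3 per dose, chosen by their labelled dose. The other 3 libraries came from cells given DMSO for 24 h and set the level from which both doses were read. They also entered the main fit, so the spread behind each p-value was estimated over all 9 libraries. COR-L279 grows as an established line of human small cell lung cancer, labelled SCLC-N (the NEUROD1 subtype) and WT in genotype, so all 9 libraries come from 1 line. The 3 libraries of each group were labelled as biological replicates. RNA was extracted with RNeasy columns and sequenced from stranded total-RNA libraries, and each library held between 60721187 and 88482001 reads in genes. NEUROD1, which names the subtype, and the neuroendocrine factor INSM1 were high at both doses. Normalized counts lay between 64132 and 68130 for NEUROD1 and between 61287 and 69159 for INSM1 in the 6 JQ1 libraries. The markers CHGA, SYP and DLL3 were present at both doses but lower than in DMSO. In FPKM, CHGA was at 362.2 to 391.43 in the JQ1 libraries and 512.1 to 536.97 in DMSO. SYP was at 65.03 to 72.3 against 86.65 to 88.04, and DLL3 at 8.69 to 12.15 against 28.66 to 29.68.

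JQ1 occupies the acetyl-lysine pockets of the BET proteins and so displaces them from acetylated chromatin. BET proteins help to bring the elongation kinase P-TEFb to promoters and enhancers, while HEXIM1 and the 7SK RNA hold P-TEFb in an inactive complex. HEXIM1 transcripts rise when BET proteins are inhibited, and the gene serves as a readout of target engagement.

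HEXIM1 rose further at the higher dose. Its normalized counts were 5423, 5570 and 5469 at 0.5 µM and 7101, 6819 and 7007 at 1.5 µM, against 1133, 1142 and 1101 in DMSO. The doses did not overlap, and the level was 1.27-fold higher at 1.5 µM (log2 difference 0.35 ± 0.032 SE, limma adjusted p = 0.00028). On the log2 scale, 86.8% of the rise over DMSO at 1.5 µM was already present at 0.5 µM. NWD1, which encodes a NACHT and WD repeat protein, fell further. It gave 67.4, 61.0 and 58.6 at 0.5 µM and 18.6, 14.2 and 25.6 at 1.5 µM, against 541 to 628 in DMSO. Its log2 difference between the doses was -1.67 ± 0.19 (limma adjusted p = 0.00073), and 65.8% of its log2 fall at 1.5 µM was present at 0.5 µM.

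**Figure D1:**
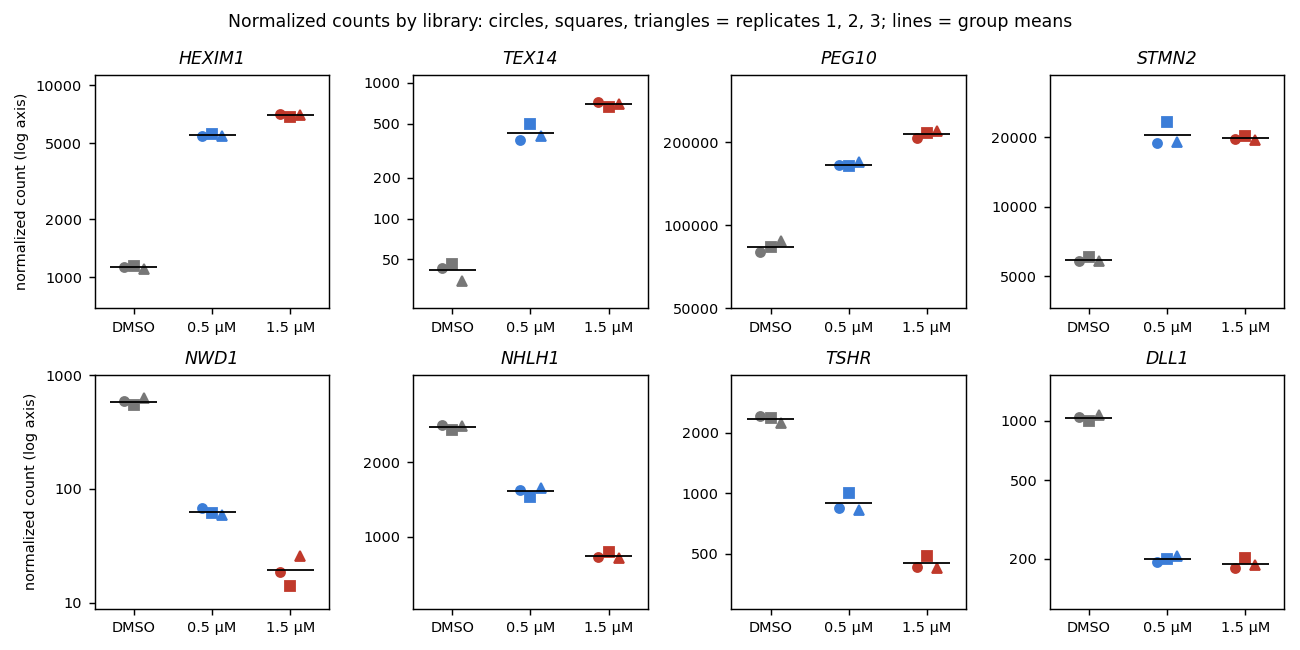
Normalized counts (log axis) of 8 genes in the 9 libraries, grouped by treatment; symbols are replicates and lines are group means. HEXIM1, TEX14 and PEG10 rise again between 0.5 and 1.5 µM and NWD1, NHLH1 and TSHR fall again, while STMN2 and DLL1 lie at about the same level at both doses.

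Libraries that stand apart bear on every count below. Among the 6 JQ1 libraries, 0.5 µM replicate 2 lay alone on the first principal component, which held 39.9% of the variance. Of 14009 genes averaging 100 or more normalized counts over these 6 libraries, 112 were at least 2-fold lower in it than in any other JQ1 library, and 90 of the 112 were pseudogenes. Another 2 genes were at least 2-fold higher in it. The other 5 libraries each stood alone in this way for 3 to 5 genes. With no limit on the gap, 0.5 µM replicate 2 was the highest JQ1 library for 4960 of the 14009 genes and the lowest for 3971. That count was not made for the other libraries. Pseudogenes took 0.687% of the reads of that library and 0.804% to 0.812% of the other JQ1 libraries. Separately, 0.5 µM replicate 3 and 1.5 µM replicates 1 and 2 shared high levels of H19 and SLC2A3 and are called the H19-high libraries here. This split placed 1 library of the lower dose and 2 of the higher dose on the H19-high side.

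Between the doses, 2233 of 17514 tested genes (12.7%) passed the test (limma on log2 of normalized count plus 1, Benjamini-Hochberg adjusted p under 0.05). The higher dose raised 816 (4.66%) and lowered 1417 (8.09%). Most of these differences were small: the median log2 difference was 0.21 among the raised genes and -0.29 among the lowered ones, and only 8 raised and 32 lowered genes differed by 2-fold or more. In 2232 of the 2233 genes the libraries of the doses did not overlap, against 5906 of all tested genes (33.7%). With 0.5 µM replicate 2 left out, 3217 genes passed, including 2129 of the 2233. With H19-high against other JQ1 libraries as a term in the fit, 1458 passed, including 1400 of the 2233. Without the H19-high libraries, which leaves 2 libraries against 1, 48 genes passed, all lower at 1.5 µM; in that fit the single 1.5 µM library is assumed to vary like the others. Within the H19-high libraries alone, 1 against 2, 1022 passed. Leaving out 1.5 µM replicate 1, 2 or 3 gave 1327, 1002 and 1023 genes, and leaving out DMSO replicate 2 gave 1473. On the deposited FPKM values 174 genes were higher and 718 lower. With the 6 JQ1 libraries alone, so without DMSO in the estimate of spread, 1123 genes passed, 434 higher and 689 lower.

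To sort dose responses, a responder was a gene at least 2-fold from DMSO in the mean of both doses with an adjusted p under 0.05. That contrast is orthogonal to the difference between the doses, so choosing responders by it does not favour a sign. There were 2940 responders (16.8% of tested genes), of which 1021 had risen and 1919 had fallen. A responder went further if it passed the test between doses away from DMSO, and was at plateau if it did not pass and the 95% interval of its difference lay within 0.32 on the log2 scale either way. Of the 2940 responders, 866 (29.5%) went further, 284 (9.66%) were at plateau and 3 moved back towards DMSO. The other 1787 (60.8%) stayed undetermined. Their median normalized count was 54.99, and their median SE of the log2 difference was 0.21, against 0.066 for plateau genes. Among all tested genes, responders or not, 50.6% met the same interval rule as plateau genes.

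Of the 1919 genes that had fallen, 628 (32.7%) fell further and 121 (6.31%) were at plateau. Of the 1021 that had risen, 238 (23.3%) rose further and 163 (16.0%) were at plateau. The difference between these shares was not tested. In the median responder 84.5% of the log2 response at 1.5 µM was already there at 0.5 µM, with an interquartile range of 77.5% to 92.4%. That share was 78.2% in the median gene that went further and 93.8% in the median plateau gene, which the classes themselves fix in part. A further 1364 genes passed the test between doses without being 2-fold responders, 575 of them higher and 789 lower at 1.5 µM. Of the genes that passed between doses, 88 did not pass in the mean of both doses against DMSO.

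**Figure D2:**
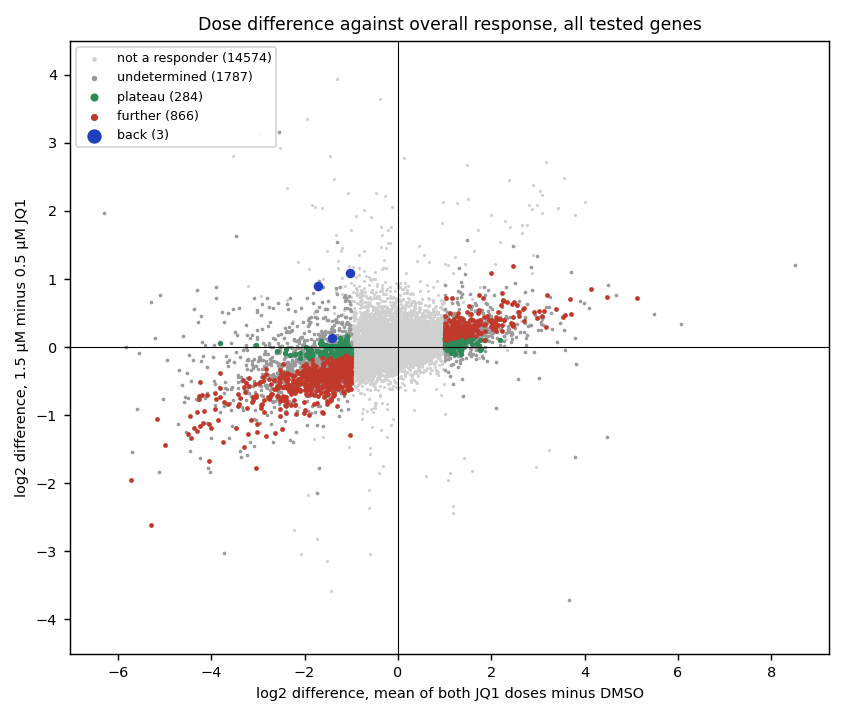
Each point is a tested gene; the horizontal axis is the log2 difference of the mean of both JQ1 doses from DMSO and the vertical axis the log2 difference of 1.5 µM from 0.5 µM. Genes that went further (866) lie mostly in the upper right and lower left, plateau genes (284) hug the zero line, and 3 genes moved back.

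Apart from histone genes, described below, the largest rises past the test among genes averaging at least 100 counts, with calls kept in both refits for doubtful libraries, were in TBC1D10C, TEX14, AHNAK2, RHD and ANGPTL6. TEX14, a protein of intercellular bridges in germ cells, gave 380, 502 and 403 at 0.5 µM and 722, 666 and 698 at 1.5 µM, from 34.8 to 46.7 in DMSO. That is a 1.62-fold increase between the doses (log2 0.71 ± 0.13, limma adjusted p = 0.0081), with no overlap. TBC1D10C, a Rab GTPase-activating protein, went from 108 ± 11.9 to 184 ± 7.80 (mean ± SD, n = 3), a log2 difference of 0.77 ± 0.16. AHNAK2, a giant PDZ-domain scaffold protein, went from 150, 112 and 125 to 199, 193 and 229, a log2 difference of 0.69 ± 0.16. ANGPTL6, a secreted angiopoietin-like factor, went from 170 ± 24.8 to 269 ± 26.0. RHD, a red-cell membrane protein, rose 1.61-fold, although reads from its near-identical paralog RHCE could be counted with it. All 5 calls held without 0.5 µM replicate 2 and with the H19-high term.

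By the same rule the 8 largest falls ran from -0.85 to -1.20 on the log2 scale. COLCA2, a gene of colorectal cancer association, fell 2.32-fold between the doses, with 205, 224 and 186 at 0.5 µM and 83.5, 100 and 82.1 at 1.5 µM (log2 -1.20 ± 0.10, limma adjusted p = 0.0002). NFATC4, a calcineurin-regulated transcription factor, gave 287, 332 and 310 and then 155, 155 and 147, a 2.04-fold fall. TSHR, the thyrotropin receptor, went from 848, 998 and 828 to 428, 487 and 425. In DMSO these 3 genes stood at 750 to 770, 1233 to 1283 and 2234 to 2437, so each stepped down at both doses without overlap between any groups.

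NHLH1, a neurogenic basic helix-loop-helix factor, fell in about equal log2 steps from DMSO to 0.5 µM and from 0.5 to 1.5 µM. It gave 2815, 2695 and 2803 in DMSO, 1548, 1446 and 1568 at 0.5 µM, and 827, 863 and 817 at 1.5 µM. Only 50.1% of its log2 fall at 1.5 µM was present at 0.5 µM, and its difference between doses was -0.86 ± 0.045 (limma adjusted p = 2.2e-05). CACNA1A, the pore-forming subunit of the P/Q-type calcium channel, had already dropped from 2217, 2219 and 2420 to 210, 227 and 184 at 0.5 µM. It then fell again to 94.8, 122 and 113. SAMD11, LRRC14B and ANKRD65 fell between doses by 0.92, 0.85 and 0.85 on the log2 scale. Each of these calls also held without 0.5 µM replicate 2 and with the H19-high term.

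Some calls depended on the libraries used. EGR1, an immediate early zinc finger factor, gave 184, 155 and 166 at 0.5 µM and 246, 257 and 271 at 1.5 µM, from 32.4 to 51.7 in DMSO. Its log2 difference was 0.62 ± 0.17 (limma adjusted p = 0.042), and the adjusted p was 0.057 without 0.5 µM replicate 2 and 0.074 with the H19-high term. The lens crystallin gene CRYGS (0.66 ± 0.16) and the coiled-coil gene CCDC87 (0.55 ± 0.16) also lost the call with the H19-high term, at limma adjusted p = 0.052 and 0.079. Among lowered genes PCDHGA1 (-0.73 ± 0.19), a gamma-protocadherin that shares exons with its neighbours, lost it at 0.062. NDST3 (-0.61 ± 0.16), a heparan sulfate sulfotransferase, lost it at 0.078 and COMTD1 (-0.58 ± 0.14) at 0.065.

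Plateau genes included large responses that were the same at both doses within that limit. ABCA4, the retinal lipid transporter, fell from 846, 835 and 872 in DMSO to 51.9, 59.9 and 64.2 at 0.5 µM and lay at 61.8, 63.0 and 57.4 at 1.5 µM. The 1.5 µM values lay within the range of the 0.5 µM ones, and the log2 difference was 0.05 (95% interval -0.18 to 0.29). DLL1, a Notch ligand, gave 193, 198 and 205 and then 178, 201 and 185 from 992 to 1066. CNN2 (calponin 2), OXTR (the oxytocin receptor) and GAL (the neuropeptide galanin) were also among the largest plateau falls, with log2 differences between doses of -0.06, -0.12 and -0.11.

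Risen plateau genes were led by ZCCHC24, RGS7, ZNF837, STMN2, CNFN and HEXDC. ZCCHC24, a zinc finger protein, gave 373, 385 and 371 at 0.5 µM and 409, 415 and 393 at 1.5 µM, from 82.8 to 87.2 in DMSO. These libraries did not overlap, yet the interval of the log2 difference, -0.05 to 0.27, stayed within the limit. STMN2, a neuronal microtubule regulator, gave 18847, 23371 and 19044 and then 19563, 20222 and 19514, from 5803 to 6070. Here 0.5 µM replicate 2 was the highest of the 6 libraries, and without it the log2 difference was 0.06 in place of -0.04, with an adjusted p of 0.15.

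Replicate 2 at 0.5 µM changed the class of CNFN and of SERPINI1, a neuronal serpin. SERPINI1 gave 5485, 6727 and 4896 at 0.5 µM and 6014, 6099 and 5857 at 1.5 µM. It was at plateau with all libraries (0.08 ± 0.093), and rose by 0.21 with limma adjusted p = 0.015 once replicate 2 was left out. CNFN, a cornified envelope gene, moved likewise from 0.11 to 0.21 (limma adjusted p = 0.034).

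The gene that moved back with an appreciable count was CPM, which encodes carboxypeptidase M. It stood at 8784, 8817 and 9166 in DMSO, 3229, 3141 and 3200 at 0.5 µM and 3439, 3522 and 3560 at 1.5 µM. The recovery was 1.10-fold (log2 0.14 ± 0.031, limma adjusted p = 0.020), without overlap, but on FPKM values the log2 difference was -0.0059. The other genes that moved back were the pseudogenes RP11-1023L17.2 (0.90 ± 0.22) and RP11-369K16.1 (1.09 ± 0.29), singled out here because only 3 genes moved back.

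Clustered histone genes that passed the test were all higher at 1.5 µM. These genes encode the core histones and linker histones, lie in clusters on chromosomes 1 and 6, and give mostly non-polyadenylated transcripts in S phase, which total-RNA libraries retain. Of 38 tested members 15 were higher at 1.5 µM and 0 lower, against 4.66% and 8.09% of all genes, and the median log2 difference was 0.46 against 0.00 for all tested genes. The single member with a negative difference was HIST2H2AC (-0.06 ± 0.14, limma adjusted p = 0.79). The count was 17 without 0.5 µM replicate 2, 13 with the H19-high term, 11 on FPKM values and 9 within the H19-high libraries, with 0 lower in each; at an unadjusted p under 0.05 with all libraries 18 were higher and 0 lower. With edgeR 16 and with DESeq2 19 were higher and 0 lower. All tested genes had 4.80% higher with edgeR and 6.65% with DESeq2, and 8.24% and 9.64% lower. Their share higher was 7.66% without 0.5 µM replicate 2, 2.47% with the H19-high term and 0.97% on FPKM values. At the unadjusted threshold 2191 of the 17514 tested genes were higher and 2838 lower. Without the H19-high libraries 0 members passed limma's adjusted test, 14 were higher and 0 lower at an unadjusted p under 0.05, and the median was 0.46. Of the 34 members that were responders, 15 went further, 1 was at plateau and 18 were undetermined.

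**Figure D3:**
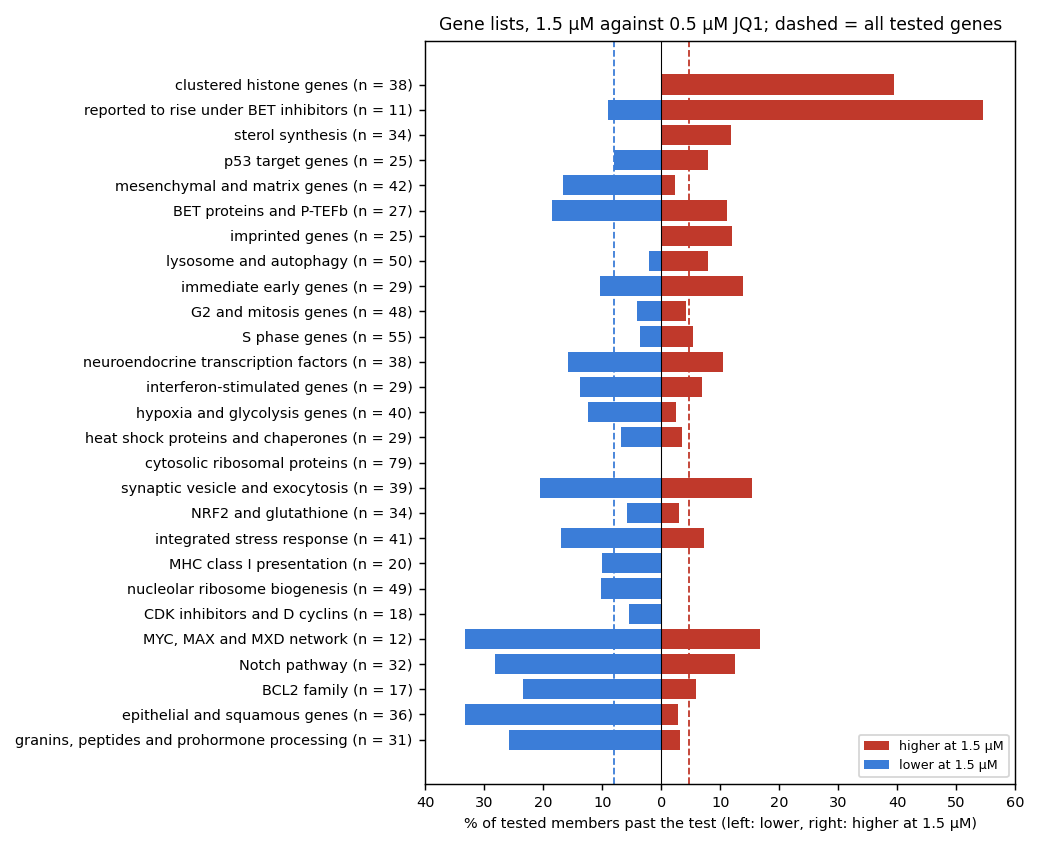
Percentage of tested members of each gene list that were higher (red, right) or lower (blue, left) at 1.5 µM than at 0.5 µM JQ1, lists ordered by median log2 difference, with dashed lines for all tested genes. Clustered histone genes (15 of 38) and genes reported to rise under BET inhibitors (6 of 11) reach farthest to the right, and 12 of 36 epithelial and squamous genes reach left.

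Promoter windows of histone genes are shown because 15 members rose together between the doses. RefSeq windows (GRCh38.p14, 250 bases before to 50 after the start, read 5′ to 3′ along the gene) matched 35 of the 38 tested members. Capitals mark, on either strand, the octamer ATTTGCAT of H2A and H2B promoters, the TATA box TATAAA and the CCAAT box, which can overlap. HIST2H2BE (chr1:149886633-149886932, minus strand) and HIST1H2BD (chr6:26157871-26158170, plus strand) went further, and HIST1H2BK (chr6:27146809-27147108, minus strand) was the single plateau member.
HIST2H2BE: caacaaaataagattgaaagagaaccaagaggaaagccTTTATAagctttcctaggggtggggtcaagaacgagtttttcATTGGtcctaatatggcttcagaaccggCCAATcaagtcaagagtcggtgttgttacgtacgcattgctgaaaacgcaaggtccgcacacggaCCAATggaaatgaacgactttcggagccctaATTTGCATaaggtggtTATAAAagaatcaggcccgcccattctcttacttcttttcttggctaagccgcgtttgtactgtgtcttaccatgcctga
HIST1H2BD: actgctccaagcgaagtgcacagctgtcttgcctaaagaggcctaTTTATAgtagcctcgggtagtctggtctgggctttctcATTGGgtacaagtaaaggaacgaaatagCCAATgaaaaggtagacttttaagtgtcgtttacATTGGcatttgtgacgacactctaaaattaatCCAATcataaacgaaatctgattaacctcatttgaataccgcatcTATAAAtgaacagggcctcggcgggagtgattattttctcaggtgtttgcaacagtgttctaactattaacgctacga
HIST1H2BK: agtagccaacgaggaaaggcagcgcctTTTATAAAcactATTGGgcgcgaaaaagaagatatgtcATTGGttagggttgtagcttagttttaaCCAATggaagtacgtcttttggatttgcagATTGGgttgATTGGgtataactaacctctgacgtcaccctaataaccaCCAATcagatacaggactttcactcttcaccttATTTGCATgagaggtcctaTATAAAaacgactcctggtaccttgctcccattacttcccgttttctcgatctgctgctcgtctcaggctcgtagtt
The octamer was in 14 of the 35 histone windows (40%) and in 1.80% of 27305 RefSeq windows. TATAAA was in 57.1% against 11.95%, and CCAAT in 82.9% against 35.7%. Among the 13 windows of members higher at 1.5 µM, 5 held the octamer and 10 TATAAA, and among the 22 windows of members that did not pass, 9 and 10 did. Not all windows were distinct: HIST1H2AD and HIST1H3D had the same one. The divergent pairs HIST1H2AG and HIST1H2BJ, HIST2H2AC and HIST2H2BE, and HIST1H2AM and HIST1H2BO each shared an octamer, counted for both genes. These matches are descriptions of the letters and not evidence of binding.

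HIST1H2BD, a replication-type H2B gene, gave 2310, 2590 and 2409 at 0.5 µM and 3293, 3456 and 3397 at 1.5 µM, from 228 to 251 in DMSO. The increase was 1.39-fold (log2 0.47 ± 0.055, limma adjusted p = 0.00073). HIST2H2BE rose by 0.38 ± 0.037 and HIST1H2AC by 0.44 ± 0.060 on the log2 scale, and HIST1H2BK differed by 0.18 ± 0.060 (limma adjusted p = 0.082). HIST4H4, an H4 gene outside the clusters of chromosomes 1 and 6, rose in about equal log2 steps. It gave 48.7, 56.8 and 62.1 in DMSO, 93.4, 84.5 and 89.0 at 0.5 µM and 127, 158 and 159 at 1.5 µM, so 48.1% of its log2 rise was present at 0.5 µM.

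Near-identical histone copies were read as sums, since reads could be split between them. HIST2H4A and HIST2H4B together went from 4605 ± 107 to 6703 ± 63.6 (mean ± SD, n = 3), a ratio of 1.46, from 380 ± 10.1 in DMSO. HIST2H3A and HIST2H3C together went from 735 ± 76.0 to 1204 ± 91.3, a ratio of 1.64. HIST2H2AA3 and HIST2H2AA4 together went from 4611 ± 52.6 to 5978 ± 88.2, a ratio of 1.30. HIST2H2BC, an H2B-like gene with close relatives in the cluster, went from 106, 85.7 and 89.0 to 221, 192 and 235, and its own share of those reads is uncertain.

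Histone transcripts are made in S phase, and genes of the cell cycle were read beside them. Of 55 S phase genes 3 (5.45%) were higher and 2 (3.64%) lower at 1.5 µM, near or below the 4.66% and 8.09% of all tested genes, with a median log2 difference of -0.0036. POLE, the catalytic subunit of DNA polymerase epsilon, rose by 0.19 ± 0.034, and E2F2, an activator E2F, fell by 0.28 ± 0.070. Of 48 G2 and mitosis genes 2 (4.17%) were higher and 2 (4.17%) lower, with a median of 0.0024. MKI67, the Ki-67 proliferation marker, went from 24213, 24897 and 25914 to 28898, 29350 and 28352 (log2 0.21 ± 0.055, limma adjusted p = 0.036). MKI67 had an adjusted p of 0.086 with the H19-high term. Without 0.5 µM replicate 2 the counts were 8 higher and 3 lower for S phase and 11 higher and 2 lower for G2 and mitosis, while 7.66% of all tested genes were higher and 10.7% lower.

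Of 11 genes reported to rise under BET inhibitors, 6 (54.5%) were higher and 1 (9.09%) lower at 1.5 µM. All tested genes had 4.66% higher and 8.09% lower. This list was drawn up with its direction against DMSO known. The 6 were HEXIM1 and 5 histone genes, so it overlaps the histone list. The lowered member was CDKN1A, the p21 inhibitor of cyclin-dependent kinases, at 13488, 12803 and 13647 and then 12706, 11921 and 12063 (log2 -0.12 ± 0.035, limma adjusted p = 0.045). With the H19-high term CDKN1A no longer passed (adjusted p = 0.052).

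Among BET proteins and P-TEFb components, 3 of 27 (11.1%) were higher and 5 (18.5%) lower, against 4.66% and 8.09% of all tested genes. BRD2, the BET protein known to increase when BET proteins are blocked, went from 34284 ± 1155 to 37360 ± 533, a 1.09-fold rise (log2 0.12 ± 0.035, limma adjusted p = 0.042), and the adjusted p was 0.086 with the H19-high term. BRD3, another BET protein, gave 13868, 10889 and 13851 at 0.5 µM and 14299, 14647 and 14579 at 1.5 µM. Replicate 2 was the lowest library, and BRD3 passed neither with it (0.18 ± 0.078, limma adjusted p = 0.16) nor without it (0.07, adjusted p = 0.10). HEXIM2, the HEXIM1 paralog, fell 1.43-fold between doses, from 148, 173 and 142 to 96.9, 118 and 109. NELFCD, a subunit of the negative elongation factor NELF, fell by 0.25 ± 0.032 and its partners NELFA and NELFE by 0.23 and 0.16. NELFE lost the call with the H19-high term (limma adjusted p = 0.063).

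In the MYC, MAX and MXD network 2 of 12 genes (16.7%) were higher and 4 (33.3%) lower, against 4.66% and 8.09% of all genes. MYC gave 22651, 22313 and 22715 at 0.5 µM and 19647, 19846 and 19962 at 1.5 µM, from 31562 to 31714 in DMSO. It thus stepped down at both doses, by 1.14-fold between them (log2 -0.19 ± 0.024, limma adjusted p = 0.0013). MYCL did not pass (-0.07 ± 0.060). MXD4, a MAX partner that opposes MYC, rose from 10231 ± 513 to 12007 ± 293, and MGA, another MAX partner, rose by 0.22. MGA had an adjusted p of 0.057 with the H19-high term. MLXIPL, the glucose-responsive factor ChREBP, fell by 0.30.

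Nucleolar ribosome biogenesis genes, many of them regulated by MYC, had 5 of 49 members (10.2%) lower and 0 higher with limma, with a median of -0.06. The share lower is near the 8.09% of all tested genes. At an unadjusted p under 0.05 there were 17 lower and 2 higher, and DESeq2 called 9 lower and 0 higher. Of all 17514 tested genes, 2838 were lower and 2191 higher at that unadjusted threshold. DESeq2 called 9.64% of all tested genes lower and 6.65% higher. The 5 were RRS1, WDR74, NOP16, PPAN and MRTO4. RRS1, needed for the large ribosomal subunit, went from 1601, 1749 and 1599 to 1312, 1296 and 1321 (log2 -0.33 ± 0.044, limma adjusted p = 0.0014). With the H19-high term only 1 member was lower, while 5.86% of all tested genes were. Of 79 cytosolic ribosomal protein genes 0 passed with limma or edgeR and 1, a raised gene, with DESeq2. At an unadjusted limma p under 0.05 there were 3 higher and 0 lower, against 2191 and 2838 of the 17514 tested genes. The median was -0.02.

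Neuroendocrine transcription factors split by gene. Of 38 tested, 6 (15.8%) were lower and 4 (10.5%) higher at 1.5 µM, against 8.09% and 4.66% of all tested genes. Besides NHLH1, the lowered members were MYT1L, NEUROD2, NEUROD4, NKX2-2 and RCOR2. MYT1L, a neuronal zinc finger factor, gave 667, 754 and 720 and then 549, 510 and 510, and 45.9% of its log2 fall was present at 0.5 µM. NEUROD2 went from 2563 ± 137 to 1953 ± 95.2. EBF1, ONECUT2, SOX4 and FOXA1 rose by 0.37, 0.24, 0.19 and 0.13. NKX2-2 and SOX4 lost the call with the H19-high term (limma adjusted p = 0.10 and 0.065), and NKX2-2 also lost it without 0.5 µM replicate 2 (0.063). NEUROD1, the factor that names the subtype, did not pass: its difference was 0.04 ± 0.028 with a 95% interval of -0.02 to 0.10. INSM1 (0.00, interval -0.09 to 0.10) did not pass either. Without 0.5 µM replicate 2 the same list gave 6 lower and 5 higher, while 10.7% of all tested genes were lower and 7.66% higher.

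Of 31 granins, peptides and prohormone processing genes 8 (25.8%) were lower and 1 (3.23%) higher, against 8.09% and 4.66% of all tested genes, and the median was -0.23. BRS3, an orphan bombesin receptor, gave 89.2, 121 and 107 at 0.5 µM and 46.4, 46.1 and 64.6 at 1.5 µM, from 1584 to 1653 in DMSO (log2 -1.01 ± 0.15, limma adjusted p = 0.0024). DDC, which makes dopamine and serotonin from their precursors, went from 4712, 4904 and 4510 to 3326, 3247 and 3202. SSTR2, the somatostatin receptor, went from 1256 ± 24.7 to 972 ± 36.3 (log2 -0.37 ± 0.042). VGF, a secreted neuropeptide precursor, was the raised member at 0.27. The granin CHGA did not pass (-0.03 ± 0.029), nor did the vesicle protein SYP (-0.07 ± 0.030). Without 0.5 µM replicate 2 SYP passed, at -0.09 with a limma adjusted p of 0.030. The list then gave 12 lower and 1 higher, while 10.7% of all tested genes were lower and 7.66% higher.

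Synaptic vesicle and exocytosis genes moved both ways, with 8 of 39 (20.5%) lower and 6 (15.4%) higher. All tested genes had 8.09% lower and 4.66% higher. CPLX2, a complexin that clamps vesicle fusion, went from 20378 ± 703 to 15860 ± 209, and the vesicle protein SV2B from 896 ± 69.1 to 715 ± 34.6. PCLO, the large active-zone scaffold piccolo, went from 8899, 10003 and 9886 to 12071, 12036 and 11640 (log2 0.31 ± 0.084, limma adjusted p = 0.036). With the H19-high term 6 were lower and 2 higher, while 5.86% of all tested genes were lower and 2.47% higher. PCLO then had a limma adjusted p of 0.083.

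In the Notch pathway 9 of 32 genes (28.1%) were lower and 4 (12.5%) higher, with a median of -0.11. All tested genes had 8.09% lower and 4.66% higher. DTX3 and DTX1, ubiquitin ligases of the deltex family, fell 1.47-fold and 1.39-fold: DTX3 went from 1529, 1636 and 1571 to 1129, 1062 and 1021. DLL3, an inhibitory ligand typical of small cell lung cancer, went from 1542, 1469 and 1533 to 1259, 1143 and 1126 (log2 -0.37 ± 0.048, limma adjusted p = 0.0014). DLL1, as above, was at plateau. NOTCH2, a receptor, was higher at 1.5 µM, at 273, 284 and 283 against 203, 200 and 237 (log2 0.40 ± 0.099). With the H19-high term 9 were lower and 1 higher, while 5.86% of all tested genes were lower and 2.47% higher. NOTCH2 then had a limma adjusted p of 0.070.

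Of 36 epithelial and squamous genes 12 (33.3%) were lower and 1 higher, against 8.09% and 4.66% of all tested genes, and 23 did not pass. The median was -0.21, with 24 negative and 12 positive differences. KRT15, a basal keratin, gave 61.2, 63.4 and 68.7 at 0.5 µM and 21.6, 19.5 and 35.9 at 1.5 µM, from 826 to 949 in DMSO (log2 -1.34 ± 0.20, limma adjusted p = 0.0025). The others were CEACAM6, MUC1, KRT7, CLDN3, CLDN7, ESRP1, ESRP2, KRT19, SFN, PKP3 and EPCAM, which include claudins of tight junctions and the epithelial splicing regulators. DSP, the desmosomal protein desmoplakin, was the raised member. DSP, EPCAM, CEACAM6 and SFN lost the call with the H19-high term (limma adjusted p = 0.093, 0.086, 0.064 and 0.059), and CEACAM6 also lost it without 0.5 µM replicate 2 (0.055). Of 42 mesenchymal and matrix genes 7 (16.7%) were lower and 1 (2.38%) higher. Their median was 0.04, with 25 positive and 17 negative differences. The median member was 0.12 higher on the log2 scale in the H19-high than in the other JQ1 libraries. CD44, a hyaluronan receptor, fell from 6325 ± 155 to 4933 ± 156, LOXL2, a lysyl oxidase, from 1343 ± 29.9 to 1047 ± 33.0, and CDH2, the neural cadherin, rose by 0.18.

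Stress and interferon genes gave mixed counts, read against 8.09% of all tested genes lower and 4.66% higher. In the integrated stress response 7 of 41 (17.1%) were lower and 3 (7.32%) higher. STC2, a secreted glycoprotein, went from 644, 755 and 686 to 459, 485 and 441. DDIT4, an mTORC1 inhibitor, went from 2592, 2194 and 2760 to 1750, 1744 and 1750. CEBPB fell by 0.47 and TRIB3 by 0.33, while the asparagine synthetase gene ASNS rose by 0.19. Of 29 interferon-stimulated genes 4 (13.8%) were lower and 2 (6.90%) higher. IFIH1, the double-stranded RNA sensor MDA5, went from 417, 413 and 426 to 294, 297 and 286 (log2 -0.52 ± 0.050, limma adjusted p = 0.00034), and PARP9 and SAMD9 fell by 0.54 and 0.46. IFI6 rose by 0.28, with an adjusted p of 0.058 under the H19-high term. Of 20 genes of MHC class I presentation 2 (10%) were lower, ERAP1 (-0.37) and CALR (-0.16), near the share of all tested genes.

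In the BCL2 family 4 of 17 (23.5%) were lower and 1 (5.88%) higher, against 8.09% and 4.66% of all tested genes. BCL2L11, which encodes the pro-apoptotic BH3 protein BIM, went from 5672, 5227 and 5733 to 6262, 6473 and 6546 (log2 0.21 ± 0.040, limma adjusted p = 0.0085). The anti-apoptotic BCL2L1 fell by 0.16 and the pro-apoptotic BOK and BAD by 0.24 and 0.22. BOK and BAD lost the call with the H19-high term (limma adjusted p = 0.082 and 0.057). Of 25 p53 target genes 2 (8%) were higher and 2 (8%) lower, and the share lower is near that of all tested genes. RRM2B and FBXW7 were raised and BTG2 and CDKN1A lowered. FBXW7 had an adjusted p of 0.077 with the H19-high term. Of 18 CDK inhibitors and D cyclins CDKN1A alone passed, so 5.56% were lower and 0 higher.

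Sterol synthesis had 4 of 34 genes (11.8%) higher and 0 lower with limma: TM7SF2, INSIG1, MSMO1 and FDFT1. All tested genes had 4.66% higher and 8.09% lower. At an unadjusted p under 0.05 there were 7 higher and 2 lower, and DESeq2 called 5 higher and 1 lower. Of all 17514 tested genes, 2191 were higher and 2838 lower at that unadjusted threshold. DESeq2 called 6.65% of all tested genes higher and 9.64% lower. INSIG1, which retains the sterol sensor complex in the endoplasmic reticulum, went from 9384, 9231 and 9102 to 10459, 10644 and 10797 (log2 0.20 ± 0.028, limma adjusted p = 0.0018). On FPKM values 1 gene of that list was higher and 1 lower. Of 25 imprinted genes 3 (12%) were higher and 0 lower with limma. The counts were 4 and 4 at an unadjusted p under 0.05, and 3 and 3 with DESeq2, to be read against the same shares of all tested genes. PEG10, a retrotransposon-derived gene, rose from 165084, 163581 and 168910 to 206297, 216135 and 219684, and IGF2R from 16393 ± 673 to 20771 ± 117. KCNQ1OT1 gave 407, 502 and 465 and then 659, 643 and 652, but it lies antisense to KCNQ1 and none of the sources used here says whether counting used the strand.

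The remaining lists are read against 4.66% of all tested genes higher and 8.09% lower. In immediate early genes 4 of 29 (13.8%) were higher and 3 (10.3%) lower, with KLF4, a reprogramming factor, rising by 0.41 and the phosphatase DUSP2 falling by 0.48. In lysosome and autophagy genes 4 of 50 (8%) were higher and 1 (2%) lower, the latter being TFEB (-0.47), the factor that drives lysosomal genes. In hypoxia and glycolysis genes 5 of 40 (12.5%) were lower and 1 (2.5%) higher, with the angiogenic factor VEGFA falling by 0.35. In heat shock genes 2 of 29 (6.90%) were lower and 1 (3.45%) higher, with the small heat shock protein HSPB1 falling by 0.32. In NRF2 and glutathione genes 2 of 34 (5.88%) were lower and 1 (2.94%) higher, the latter being TXNIP, a thioredoxin-binding protein, at 4397 ± 65.7 and 5490 ± 164.

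Dose differences moved with transcript length. Genes averaging at least 100 counts were split into 5 equal classes by their longest transcript in GENCODE 29, which gave a length to 13678 of 14009. In the shortest class 1.75% of genes were higher and 8.81% lower at 1.5 µM, and in the longest class 13.01% were higher and 6.51% lower. The median log2 difference went from -0.03 to 0.05. Without 0.5 µM replicate 2 the shares higher were 3.47% and 17.7%. Single libraries also tilted with length, each read against the mean of the other libraries of its own dose. The median of the longest class was -0.05 in 0.5 µM replicate 2, 0.05 in 0.5 µM replicate 3 and -0.04 in 1.5 µM replicate 1. Values within a dose are not independent, since each library enters the mean against which the others are read. The part of this tilt in the dose calls was not tested.

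**Figure D4:**
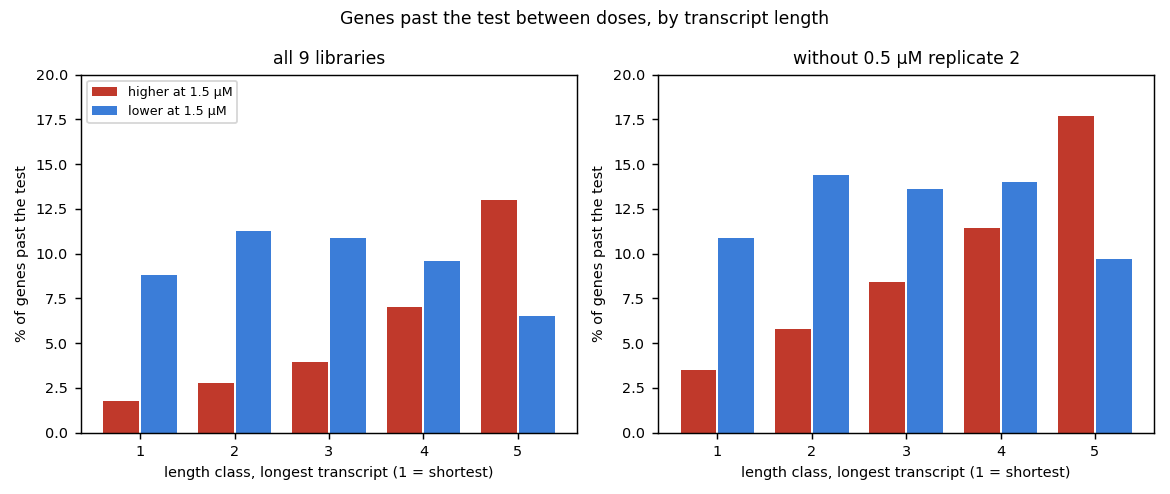
Percentage of genes higher (red) or lower (blue) at 1.5 µM than at 0.5 µM JQ1 in 5 equal classes by longest transcript, for genes averaging at least 100 counts, with all libraries (left) and without 0.5 µM replicate 2 (right). The share higher grows from 1.75% to 13.01% with all libraries.

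Some genes followed the H19-high libraries, so that both doses held high and low values. H19, an imprinted long noncoding RNA, gave 1.04, 8.22 and 1563 at 0.5 µM and 2071, 1476 and 2.05 at 1.5 µM, against 71.0, 63.8 and 82.8 in DMSO. SLC2A3, the neuronal glucose transporter GLUT3, gave 0, 3.52 and 489 and then 479, 390 and 0. On FPKM values H19 was at 0.55, 0.52 and 6.8 in DMSO and at 9.74 to 14.21 in the H19-high libraries. The deposited measures thus differ for H19 in DMSO replicate 3, and the reason was not tested. In all, 15 genes averaging at least 100 counts were at least 2-fold higher in each H19-high library than in any other JQ1 library, and none was at least 2-fold lower. They included PTN, GABRP, LUM and ANXA1. Chosen this way, they overlap between the doses by construction, so the dose test does not bear on them. GABRP, a GABA-A receptor subunit, gave 4.15, 4.70 and 999 and then 941, 781 and 2.05. For H19 the mean difference of 2.77 on the log2 scale had an SE of 2.66, and with the H19-high term it was -0.17.

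The same pattern was seen in YAP1, the Hippo pathway coactivator, and EPAS1, which encodes the hypoxia factor HIF-2 alpha. YAP1 gave 12.4, 12.9 and 148 and then 178, 117 and 7.18, and EPAS1 gave 82.0, 92.7 and 427 and then 584, 429 and 131. Neither passed (limma adjusted p = 0.65 and 0.29). Endothelial and fibroblast markers were read beside this pattern. The endothelial markers VWF and TEK were listed at 0 FPKM in every JQ1 library, and 11 of 14 markers were under 0.5 FPKM in all of them. The matrix genes LUM, COL3A1 and DCN were higher in the H19-high libraries than in the other JQ1 libraries. LUM was at 4.0, 2.92 and 2.91 FPKM in 0.5 µM replicate 3 and 1.5 µM replicates 1 and 2 and at 0.02 to 0.06 in the remaining 3. COL3A1 was at 3.05, 2.9 and 2.74 against 0.08 to 0.14, and DCN at 0.41, 0.41 and 0.4 against 0 to 0.02. COL1A2 lay at 4.46 to 6.04 FPKM in all 6, and COL1A1 at 0.32, 0.24 and 0.41 against 0.36 to 0.4. In DMSO LUM was at 0.29 to 0.51, COL3A1 at 0.35 to 0.5 and DCN at 0, while COL1A2 was at 14.67 to 15.66. The summed level of the 14 markers was 11.9 to 14.4 FPKM in the H19-high libraries and 5.33 to 5.99 in the remaining JQ1-treated ones. It was 16.2 to 17.3 in DMSO, most of it COL1A2. By dose it was 5.74 to 14.4 at 0.5 µM and 5.33 to 12.2 at 1.5 µM, and its part in the pattern was not tested. In such bulk RNA, more cells of a type and more RNA per cell cannot be told apart. All 15 immune cell markers were under 0.5 FPKM in every JQ1 library.

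**Figure D5:**
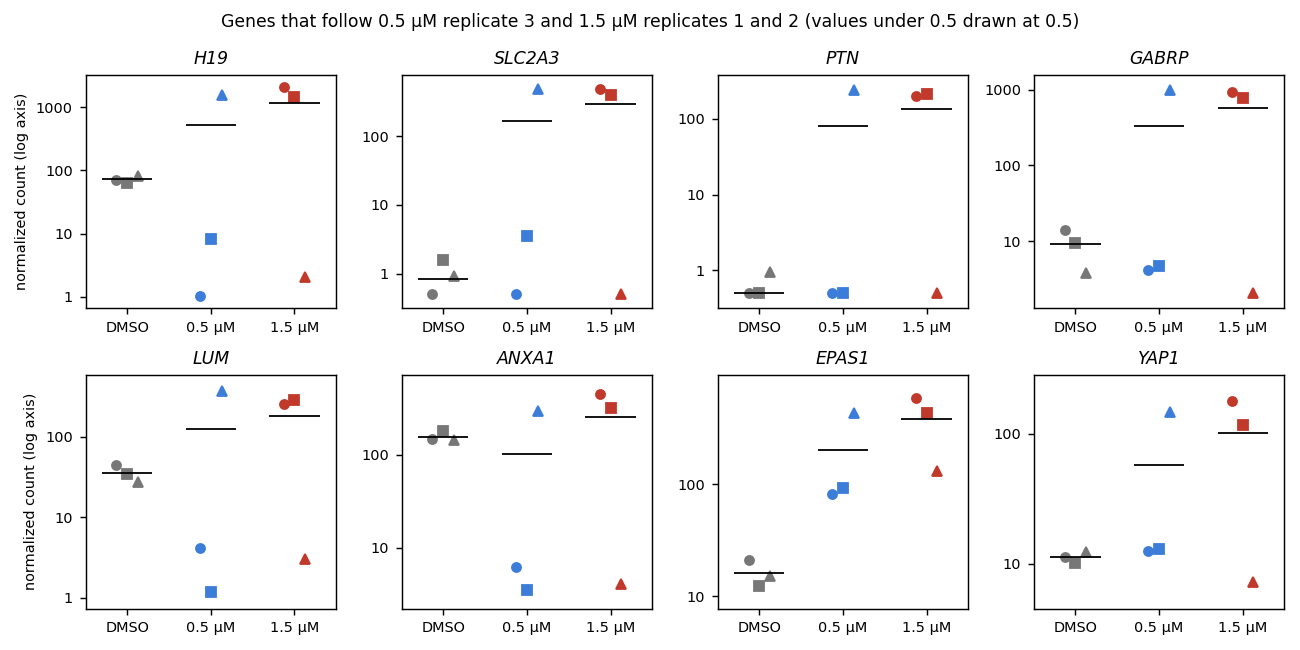
Normalized counts (log axis) of 8 genes by library and treatment; symbols are replicates 1 (circle), 2 (square) and 3 (triangle), lines are group means, and values under 0.5 are drawn at 0.5. In each panel the triangle at 0.5 µM and the circle and square at 1.5 µM are high, so both doses hold high and low libraries.

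Genes at least 2-fold apart in 0.5 µM replicate 2 alone were mostly pseudogenes. By any gap it was the highest or lowest JQ1 library for many more genes, as given above. RN7SL2, an RNA of the signal recognition particle, was at 3308 there and at 1545 to 1677 in the remaining 5. The cancer-testis gene CSAG3, which has near-identical copies, was at 542 there and between 0 and 265 in the others. AC119673.1 was listed at 0 in that library, against 667 and 319 in the other 0.5 µM libraries and 702 to 1253 at 1.5 µM, and it did not pass (limma adjusted p = 0.21). By type, 734 (5.34%) of 13750 protein-coding genes were higher and 1349 (9.81%) lower at 1.5 µM. Of 1568 pseudogenes 15 (0.957%) were higher and 10 (0.638%) lower, and of 1631 long noncoding genes 45 (2.76%) and 38 (2.33%). All tested genes had 4.66% higher and 8.09% lower. An average of at least 100 counts was reached by 12181 protein-coding genes, 727 pseudogenes and 763 long noncoding genes. The part of depth and of 0.5 µM replicate 2 in these shares was not tested.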

How the data were processed

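RNA-seq was analysed in 9 libraries of COR-L279 cells. Reads were trimmed with cutadapt, aligned with STAR to hg19 and quantified with RSEM, per the submitters' processing notes; none of the sources used here gives versions, annotation or strand setting. The authors deposited counts normalized by DESeq2 size factors (a signal for 17518 genes) and FPKM. Dividing out the smallest step gave whole reads for 100% of the deposited signal values (tolerance 0.001). The main test was limma 3.58.1 with trend (R 4.3.3) on log2(normalized count + 1) over all 9 libraries, for genes with at least 10 in at least 3 libraries (17514 tested, 4 left out), two-sided, Benjamini-Hochberg threshold 0.05. Fold changes on this scale understate low genes. Count tests on the recovered reads used edgeR 4.0.16 (2283 genes) and DESeq2 1.42.0 (2853 genes). FPKM were tested as log2(FPKM + 0.1). Gene types and lengths came from GENCODE 29 (16966 genes matched) and promoters from RefSeq, both on GRCh38, so no hg19 gene coordinates are printed. Named genes were the fixed list, the 8 largest calls of each sign averaging at least 100 counts and held in 2 refits, the 3 largest lost in 1 refit, the 6 largest plateau rises and falls, genes that moved back, up to 3 per list, and genes set by single libraries; a few genes that these rules name are not reported here. The comparison, lists and rules were chosen with earlier results of these data known. Replicates are labelled biological, and p-values measure the spread between these libraries.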

Additional observations from a re-analysis of the deposited data

How the results depend on the processing

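The 2233 genes that differed between doses (816 higher, 1417 lower) became 1123 (434 and 689) with the 6 JQ1 libraries alone, 892 (174 and 718) on FPKM, 5238 (2457 and 2781) with library weights, 1458 (432 higher) with the H19-high term, 1022 (218 and 804) within the H19-high libraries and 48 (0 and 48) without them. Limma without trend gave 504 higher. Leaving out 1 library gave 1002 (without 1.5 µM replicate 2) to 3217 (without 0.5 µM replicate 2), with 241 to 1342 higher and 761 to 1875 lower; 1.5 µM replicates 1 and 3 and DMSO replicate 2 also moved the total over 1.5 times, to 1327, 1023 and 1473. Responders that went further (866) numbered 433 on FPKM, 1336 with library weights, 530 within and 43 without the H19-high libraries, and 550 to 1000 leaving out 1 library. Genes that moved back (3) numbered 22 with library weights, 13 within and 0 without the H19-high libraries, and 0 to 13 leaving out 1 library. Without the H19-high libraries 144 were at plateau and 2779 undetermined. Leaving out 1 library gave 2853 to 3007 responders, 241 to 307 at plateau and 1678 to 2099 undetermined. A 1.5-fold plateau limit gave 889 plateau and 1182 undetermined genes. Responders at 1.5-fold numbered 5973, with 1487 further, 5 back, 1467 plateau and 3014 undetermined. The cause of these changes was not tested. Fits that left out libraries also had fewer of them, and the part of that was not tested either.

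The replicate numbers did not pair the libraries: deviations of same-numbered libraries correlated at -0.12, -0.15 and -0.39, and no library matched its own number best. With a replicate block 2030 genes passed.

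Reversed log2 differences were few, 18 of 3295 values for 132 named genes. With the H19-high term they were H19 (-0.17), SLC2A3 (-0.63) and YAP1 (-0.39). Without the H19-high libraries they were H19 (-0.51), SLC2A3 (-1.09), YAP1 (-0.74) and SERPINI1 (-0.053). Within the H19-high libraries they were SLC2A3 (-0.18), INSM1 (-0.049), MYCL (0.039) and YAP1 (-0.030). On FPKM they were INSM1 (-0.016) and CPM (-0.0059). INSM1 also turned with edgeR (-4.5e-05), and with library weights (-0.055). Leaving out 1 library gave -0.049 (without 0.5 µM replicate 2) to 0.038 for INSM1 and -0.020 (without 0.5 µM replicate 3) to 0.21 (without 0.5 µM replicate 2) for SERPINI1. CPM alone among these had passed the test. Of the other values 2785 kept direction and side of the threshold, 471 no longer passed, 7 newly passed and 14 moved by more than the spread. With a minimum count of 50, 1396 of 2554 responders were undetermined; the part of depth in that class was not tested.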
